A study of Mus musculus with 12 samples.

Results

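Trophic and angiogenic growth factors were followed in microglia with and without *Hdac3*, after sham surgery and after stroke. The 8 genes *Igf1*, *Bdnf*, *Pdgfa*, *Pdgfb*, *Vegfa*, *Vegfb*, *Hbegf* and *Gdf15* were taken by symbol from 55401 gene identifiers. Of these genes, 7 passed the filter on low counts and were tested among 16451 genes, and *Bdnf* did not pass.

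RNA-seq was performed on CD45int CD11b+ microglia sorted from mouse brain, in 12 libraries that formed 4 groups of 3. Each library pooled cells of 3 to 4 hemispheres from male mice. The comparisons ask how stroke alters microglia and how loss of microglial HDAC3, a histone deacetylase, alters them at rest and after stroke. Replicate 1 of every group was labelled batch 1, and replicates 2 and 3 batch 2, with no statement of which step the batches were. WT-Sham and WT-tFCI mice were *Hdac3* loxp/loxp without CreER. miKO-Sham and miKO-tFCI mice were *Hdac3* loxp/loxp with CreER in one *Cx3cr1* allele, so both genotypes carried the floxed alleles. Knockout was induced with tamoxifen on 5 days at 6 to 8 weeks of age, at least a month before surgery. In the tFCI groups the middle cerebral artery was occluded for 60 min and cells were taken on day 3, whereas sham surgery left the artery open. *Cx3cr1* drives the recombinase in any cell that uses the gene, and the miKO mice alone had lost a functional *Cx3cr1* copy, so the effects of CreER, of that lost copy and of *Hdac3* deletion cannot be told apart here.

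Growth factors of this kind are secreted or shed ligands that act on receptor tyrosine kinases or related receptors of neighbouring cells. IGF-1 supports neuron and oligodendrocyte survival, BDNF acts on neurons through TrkB, PDGF chains act on pericytes and oligodendrocyte progenitors, VEGF ligands act on endothelium, HB-EGF acts on EGF receptors, and GDF15 is a stress cytokine sensed through GFRAL. In the brain, microglia are a known source of IGF-1, and *Vegfa* is a classical target of hypoxia signalling.

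The libraries held 7697864 to 9452222 counts on genes, and values are given as CPM (counts scaled to a common library size) after TMM scaling. *Hdac3* fell by 0.81 on the log2 scale in miKO-Sham vs. WT-Sham and by 0.71 in miKO-tFCI vs. WT-tFCI. Microglia markers were present in every library, summing to 11301 to 39404 CPM over 12 genes. The lowest sum was in miKO-tFCI replicate 1. Markers of other cells were also present. The summed endothelial markers ranged from 22.5 to 32.0 CPM in WT-Sham, 14.0 to 23.0 in miKO-Sham, 76.3 to 221 in WT-tFCI and 138 to 368 in miKO-tFCI, and both maxima after tFCI were in replicate 1. Pericyte markers were at most 7.22 CPM in the sham libraries and between 12.3 and 94.5 after tFCI. Neuron markers were low throughout, at 2.67 to 3.47 CPM in WT-Sham and 5.24 to 19.3 CPM in the other groups. Monocyte and macrophage markers ranged from 40.2 to 107, 69.4 to 197, 127 to 261 and 486 to 729 CPM in the 4 groups in the same order, and border-associated macrophage markers were highest within the sham libraries in miKO-Sham replicate 3, at 314 CPM against 76.7 to 131. After tFCI, border-associated macrophage markers summed to 189 to 297 CPM in WT and 351 to 863 CPM in miKO, and neutrophil markers to 465 to 532 CPM in WT and 813 to 1022 CPM in miKO. The neutrophil sum in WT-tFCI was mostly *Csf3r*, at 342, 338 and 375 CPM. *Csf3r* lay lower in miKO-tFCI, at 231, 269 and 283 CPM, against the direction of the sum. Of the 8 neutrophil markers tested between these groups, 6 were called higher in miKO and 0 lower. miKO-Sham replicates 1 and 2, labelled as different batches, were the closest pair of all replicates (chi-square per degree of freedom 2.82, against 3.65 to 76.6 in the other pairs). They differed by more than sampling noise and were kept as separate libraries. Called differences of the members that rest on miKO-Sham are therefore also given without replicate 1 and without replicate 2. In each such fit the spread was shared over the remaining 11 libraries.

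After tFCI, *Igf1*, *Gdf15*, *Vegfa* and *Pdgfa* were higher in both genotypes. In the sham brain, loss of *Hdac3* went with more *Igf1*, *Gdf15* and *Pdgfb* and with less *Pdgfa*. The sham calls of *Pdgfb* and *Pdgfa* were lost when some single libraries were left out, as given below. After tFCI, *Igf1* and *Hbegf* were called higher and *Pdgfa* and *Vegfb* lower in miKO than in WT microglia. Each of these calls after tFCI was lost when some single libraries were left out, as given below for each gene. A gene was called at an edgeR adjusted p (quasi-likelihood test, Benjamini-Hochberg over all genes tested) under 0.05 when its log2 fold change was also beyond 0.58 in either direction. In WT-tFCI vs. WT-Sham, 4 of 7 members rose and 0 fell, where 20.9% of all genes tested rose and 11.7% fell, 32.6% in all. In miKO-tFCI vs. miKO-Sham, 5 rose and 1 fell, where 21.9% of all genes rose and 13.9% fell, 35.8% in all. In miKO-Sham vs. WT-Sham, 3 rose and 1 fell, against 8.58% and 6.80% of all genes, 15.4% in all. In miKO-tFCI vs. WT-tFCI, 2 rose and 2 fell, against 4.08% and 4.71%, 8.79% in all. The interaction of genotype and surgery, called at an adjusted p under 0.05 alone, was called lower in 1 member and higher in 0, against 2.57% and 1.25% of all genes, 3.82% in all. The median log2 fold change of the 7 members was 0.86, 0.86, 0.00 and 0.70 in these 4 comparisons of groups, where the median of all genes lay between 0.02 and 0.04. The stroke comparisons and the genotype comparisons share libraries, so their counts are not independent. Groups whose CPM did not overlap were also counted for the 7 tested members. In WT-tFCI vs. WT-Sham, 4 of them lay wholly higher and 0 wholly lower, where 26.9% and 22.9% of all genes did, 49.8% in all. In miKO-tFCI vs. miKO-Sham the counts were 4 and 1, against 26.5% and 21.6% (48.2% in all), and in miKO-Sham vs. WT-Sham 3 and 2, against 17.0% and 16.2% (33.2% in all). In miKO-tFCI vs. WT-tFCI they were 2 and 0, against 9.58% and 13.3% (22.9% in all). The libraries are bulk samples, in which fewer cells of a type and less RNA per cell cannot be told apart, and the p-values measure only the spread between pooled samples.

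**Figure D1:**
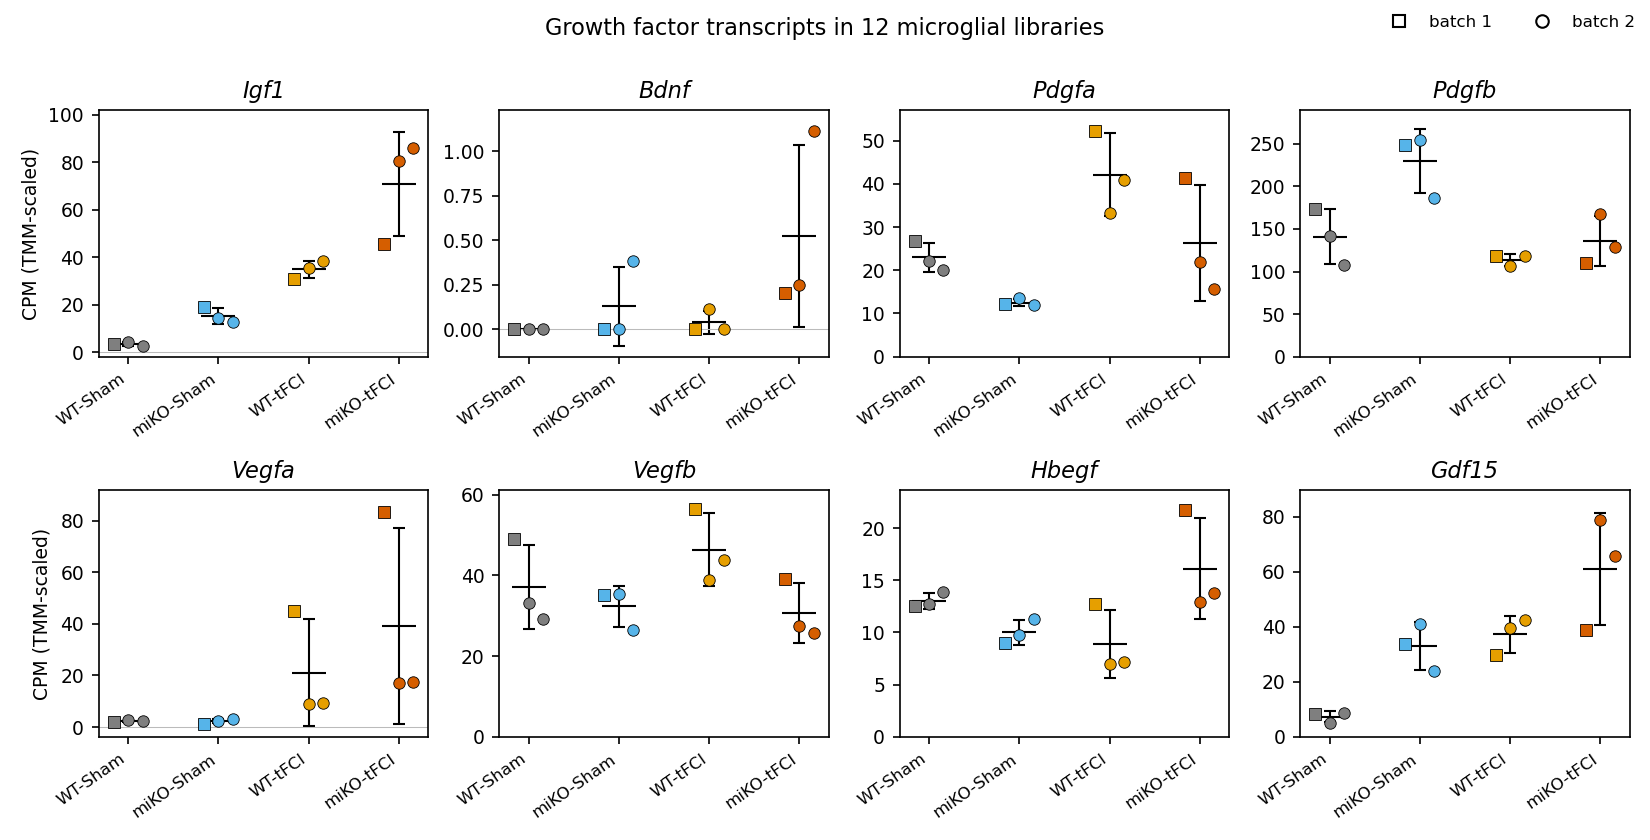
Level of each of the 8 genes (y axis, CPM) in the 12 libraries by group (x axis). Squares are batch 1, circles batch 2, and bars are the mean ± SD of 3 libraries. *Igf1* rises from 3.43 CPM in WT-Sham to 70.8 in miKO-tFCI, and *Vegfa* after tFCI is highest in the batch 1 libraries.

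*Igf1* encodes insulin-like growth factor 1, the trophic ligand of the IGF-1 receptor (ENSMUSG00000020053.18, chr10:87858265-87937042, plus strand, GRCm38). Replicates 1 to 3 of WT-Sham held 3.49, 4.15 and 2.67 CPM, and those of miKO-Sham 19.0, 14.3 and 12.7 CPM. Replicates of WT-tFCI reached 30.9, 35.5 and 38.3 CPM, and those of miKO-tFCI 45.7, 80.4 and 86.1 CPM. The 4 groups formed a ladder with no overlap between any neighbours, from WT-Sham through miKO-Sham and WT-tFCI to miKO-tFCI. In WT microglia tFCI raised *Igf1* 10.2-fold (log2 fold change 3.34, SE 0.27, edgeR adjusted p = 2.90e-07). In miKO microglia it raised it 4.51-fold (2.17, SE 0.23, edgeR adjusted p = 6.26e-06). Loss of *Hdac3* went with a 4.51-fold higher level in the sham brain (2.17, SE 0.27, edgeR adjusted p = 5.05e-05), and with a 2.01-fold higher level after tFCI (1.00, SE 0.22, edgeR adjusted p = 0.00974). Without miKO-Sham replicate 1 or 2 the rise with tFCI in miKO was 2.50 or 2.07, both called. The sham difference was 1.84 without miKO-Sham replicate 1 and 2.27 without replicate 2, both called. The difference after tFCI lost its call without WT-tFCI replicate 2 (0.98, edgeR adjusted p = 0.0552) and without miKO-tFCI replicate 3 (0.86, edgeR adjusted p = 0.0520). Within batches it was 0.56 in batch 1 and 1.17 in batch 2, and in batch 2 alone it was called (1.13, edgeR adjusted p = 0.00150). The stroke response was smaller in miKO than in WT by 1.17 on the log2 scale (95% interval -1.91 to -0.42), which was not called after adjustment over all genes (edgeR adjusted p = 0.0841). It was -0.85 without miKO-Sham replicate 1 and -1.27 without replicate 2, neither called. It was called without miKO-Sham replicate 3 (-1.35, edgeR adjusted p = 0.0418), in DESeq2 (-1.15, DESeq2 adjusted p = 0.0348) and without the filter (-1.19, edgeR adjusted p = 0.00342). Summed endothelial and monocyte and macrophage markers were also higher after tFCI. Between the tFCI groups, 3 marker sums of other immune cells were higher in every miKO library than in any WT library. Border-associated macrophage markers were at 351, 678 and 863 CPM in miKO-tFCI and 189, 297 and 279 CPM in WT-tFCI. Monocyte and macrophage markers were at 729, 486 and 723 CPM against 261, 139 and 127 CPM. Neutrophil markers were at 813, 1022 and 989 CPM against 465, 487 and 532 CPM. Replicate 1 of both groups was the lowest in *Igf1* and in the border-associated and neutrophil sums, but the highest in the monocyte and macrophage sum. Of the 8 border-associated markers, 3 were called higher and 0 lower in miKO-tFCI. In the sham comparison the summed endothelial markers were no higher in miKO (14.0 to 23.0 CPM) than in WT (22.5 to 32.0 CPM). Single endothelial markers went both ways, with *Esam* and *Cldn5* called higher in miKO-Sham and *Pecam1* called lower. The median log2 fold change of these 10 markers was 1.10. Summed monocyte and macrophage markers overlapped between the sham genotypes. The part of all these other cells in the *Igf1* differences was not tested.

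*Bdnf* encodes brain-derived neurotrophic factor (ENSMUSG00000048482.14, chr2:109674700-109727007, plus strand). It was at or near 0 counts in most libraries. WT-Sham had 0, 0 and 0 counts, miKO-Sham 0, 0 and 3, WT-tFCI 0, 1 and 0, and miKO-tFCI 2, 2 and 9. A count of 0 allows up to 3 counts, or 0.333 to 0.405 CPM at the mean library size of each group. Only 1 of the 12 libraries, miKO-tFCI replicate 3, exceeded that limit. The gene did not pass the filter, and when it was fitted without the filter its adjusted p in edgeR's test lay between 0.523 and 1.00 over the comparisons. In CPM every miKO-tFCI library (0.206 to 1.11) lay above every WT-tFCI library (0 to 0.115), on counts of 2, 2 and 9 against 0, 1 and 0, most of them at or under that limit. No difference in *Bdnf* was called at this depth. *Gm45346*, which overlaps it on the opposite strand over 896 exonic bases, had 0 counts in all 12 libraries.

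**Figure D2:**
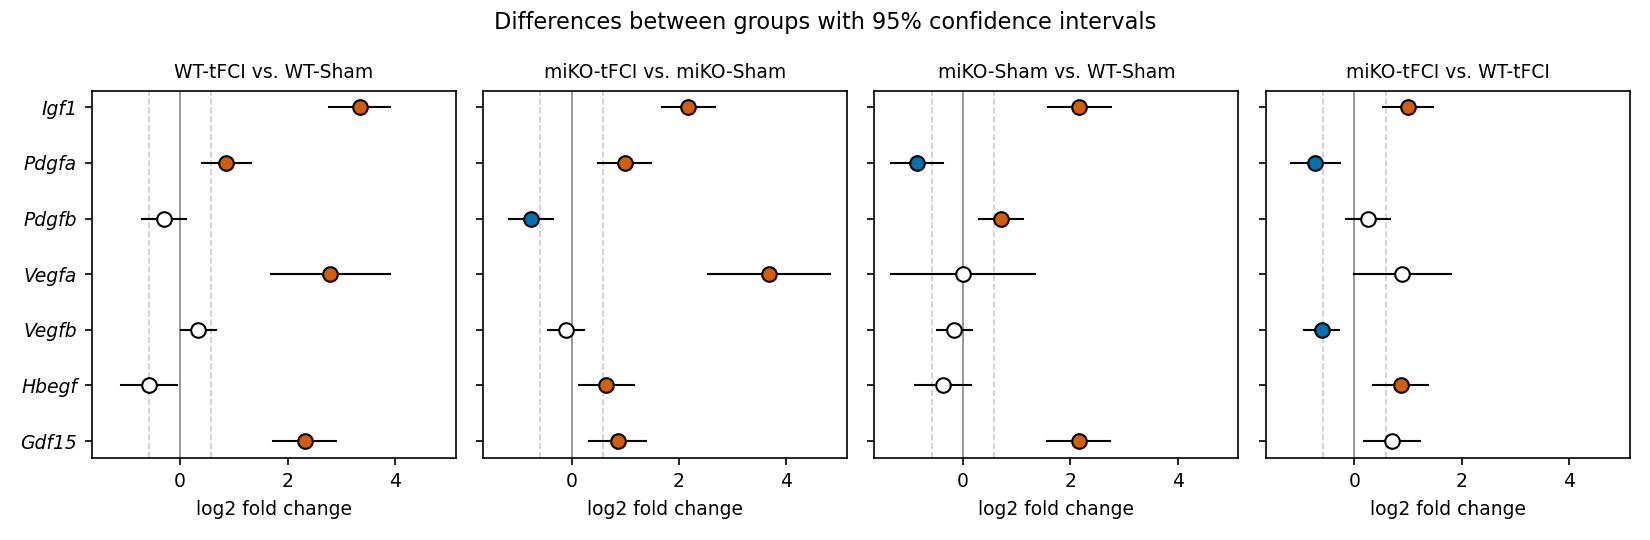
Log2 fold change of the first group over the second (x axis) with its 95% interval (bars) for the 7 tested genes (y axis), 1 panel per comparison. Filled points are called (orange higher, blue lower), dashed lines mark 0.58 in each direction, and the highest values are *Igf1* after tFCI in WT (3.34) and *Vegfa* after tFCI in miKO (3.68).

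The PDGF chains, which form dimers that act on PDGF receptors, differed in opposite directions between genotypes in the sham brain. *Pdgfa* (ENSMUSG00000025856.15, chr5:138976014-138997370, minus strand) encodes the A chain, a ligand for PDGFRA on oligodendrocyte progenitors. It was at 26.7, 22.2 and 20.1 CPM in WT-Sham and 12.2, 13.5 and 11.9 CPM in miKO-Sham. Stroke libraries of WT held 52.3, 33.2 and 40.9 CPM, and stroke libraries of miKO 41.4, 21.9 and 15.6 CPM. Both sham groups were separate, with miKO below WT, whereas both tFCI groups overlapped because miKO-tFCI replicate 1 lay among the WT libraries. tFCI raised *Pdgfa* 1.82-fold in WT (0.86, SE 0.21, edgeR adjusted p = 0.00554) and by 0.99 on the log2 scale in miKO (SE 0.23, edgeR adjusted p = 0.00301). The rise in miKO was 1.74 within batch 1 and 0.54 within batch 2, and was not called in batch 2 alone (0.54, edgeR adjusted p = 0.0874). It was 0.75 without miKO-Sham replicate 1 and 1.13 without replicate 2, both called. *Pdgfa* was 1.81-fold lower in miKO-Sham than in WT-Sham (-0.85, SE 0.23, edgeR adjusted p = 0.0163). This was not called without WT-Sham replicate 2 (edgeR adjusted p = 0.0611) or miKO-Sham replicate 1 (-0.63, edgeR adjusted p = 0.0924), or with no batch term (-0.87, edgeR adjusted p = 0.0814). It was called without miKO-Sham replicate 2 (edgeR adjusted p = 0.0153). After tFCI it was 1.66-fold lower in miKO (-0.73, SE 0.21, edgeR adjusted p = 0.0445), with -0.34 in batch 1 and -0.99 in batch 2. That call was lost without any one of 7 libraries, which were WT-Sham replicates 2 and 3, all WT-tFCI replicates and miKO-tFCI replicates 2 and 3 (-0.79 to -0.50, edgeR adjusted p = 0.0555 to 0.188). It was also lost with DESeq2 size factors (-0.70, edgeR adjusted p = 0.0593) and with no batch term (-0.68, edgeR adjusted p = 0.227). An antisense gene, *6330403L08Rik*, shares 813 exonic bases with *Pdgfa* and was at 4.35 to 8.41 CPM. It was not called in any comparison, but reads of this unstranded kit cannot be told apart by strand where the genes overlap.

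*Pdgfb* (ENSMUSG00000000489.7, chr15:79995874-80014977, minus strand) encodes the B chain, which recruits pericytes. WT-Sham libraries held 173, 142 and 108 CPM, and miKO-Sham libraries 249, 254 and 186 CPM. WT-tFCI libraries held 118, 106 and 118 CPM, and miKO-tFCI libraries 110, 168 and 129 CPM. miKO-Sham was above all other groups. *Pdgfb* was 1.63-fold higher in miKO-Sham than in WT-Sham (0.71, SE 0.19, edgeR adjusted p = 0.0176), and the call was lost without any one of WT-Sham replicates 2 and 3 and miKO-Sham replicates 1 and 2 (0.53 to 0.71, edgeR adjusted p = 0.0601 to 0.108). It fell 1.69-fold with tFCI in miKO (-0.76, SE 0.19, edgeR adjusted p = 0.00540), and this was -0.72 and -0.65 without miKO-Sham replicates 1 and 2, both called. In WT the change with tFCI was -0.30 (95% interval -0.71 to 0.10, edgeR adjusted p = 0.225), and after tFCI the genotypes differed by 0.25 (95% interval -0.15 to 0.66), neither of which was called. The interaction was -0.45 and was not called, so a difference between the genotypes in the response to tFCI was not shown.

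*Vegfa* encodes the main angiogenic ligand of the VEGF receptors (ENSMUSG00000023951.18, chr17:46016993-46032369, minus strand). Its promoter is shown because *Vegfa* rose with tFCI in both genotypes. It holds the 250 bases before one RefSeq start (chr17:46032378-46032627, minus strand, RefSeq on GRCm38.p6), and capitals mark the 1 match to GAGGAA, the core letters of a PU.1 site, here on the opposite strand and 30 to 35 bases before the start.
Vegfa promoter: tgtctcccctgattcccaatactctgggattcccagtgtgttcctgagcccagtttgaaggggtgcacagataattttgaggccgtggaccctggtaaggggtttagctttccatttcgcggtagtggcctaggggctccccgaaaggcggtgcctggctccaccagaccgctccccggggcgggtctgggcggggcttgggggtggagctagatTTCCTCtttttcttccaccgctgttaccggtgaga
In all, 4 short motifs were searched on both strands of such windows, and the *Vegfa* window held none of the other 3. The motifs were ACGTG, the core of a hypoxia response element, found in 16.6% of 32851 windows of the same length, TGANTCA (AP-1) in 6.75%, GAGGAA in 23.3% and TGACG (a partial cAMP response site) in 17.8%. ACGTG and TGACG can share bases. In a second *Vegfa* window (chr17:46025164-46025413), 1 ACGTG and 1 TGACG did so on the same strand, 205 to 211 bases before that start. RefSeq gave 15 windows for 6 of the 8 members, and *Pdgfb* and *Hbegf* had no entry. A match is a description of letters and not a site in use.

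*Vegfa* was at 2.16, 2.58 and 2.26 CPM in WT-Sham and 1.39, 2.50 and 2.95 CPM in miKO-Sham. After tFCI it was at 44.9, 8.77 and 9.50 CPM in WT and at 83.2, 17.1 and 17.4 CPM in miKO. Every tFCI library lay above every sham library, and in both tFCI groups replicate 1 stood far above the others. tFCI raised *Vegfa* 6.93-fold in WT (2.79, SE 0.52, edgeR adjusted p = 7.09e-04) and 12.8-fold in miKO (3.68, SE 0.53, edgeR adjusted p = 8.51e-05). The rise was 4.23 and 5.68 within batch 1, and 1.82 and 2.57 within batch 2. In batch 2 alone it was still called in both genotypes, at 1.92 (edgeR adjusted p = 4.23e-04) and 2.63 (edgeR adjusted p = 4.76e-05). Without miKO-Sham replicate 1 the rise in miKO was 2.82, and without replicate 2 it was 3.99, both called. The genotypes differed by 0.00 in the sham brain (95% interval -1.34 to 1.35). After tFCI the level in miKO was higher by 0.89 (95% interval 0.00 to 1.79, edgeR adjusted p = 0.192), which was not called, with 0.89 and 0.90 in the 2 batches. It was 0.28 without miKO-tFCI replicate 1 and 1.44 without WT-tFCI replicate 1, neither of which was called, but it was called when only the tFCI groups were fitted (0.90, edgeR adjusted p = 7.56e-04) and without the filter (0.88, edgeR adjusted p = 0.00285). The replicate 1 libraries after tFCI were also those with the most endothelial markers, 221 and 368 CPM against 76.3 to 147 CPM in replicates 2 and 3, and the most pericyte markers, 43.2 and 94.5 CPM against 12.3 to 38.8. Astrocyte markers were also highest there, at 304 and 631 CPM against 173 to 245. The part of these cells in the *Vegfa* levels was not tested.

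**Figure D3:**
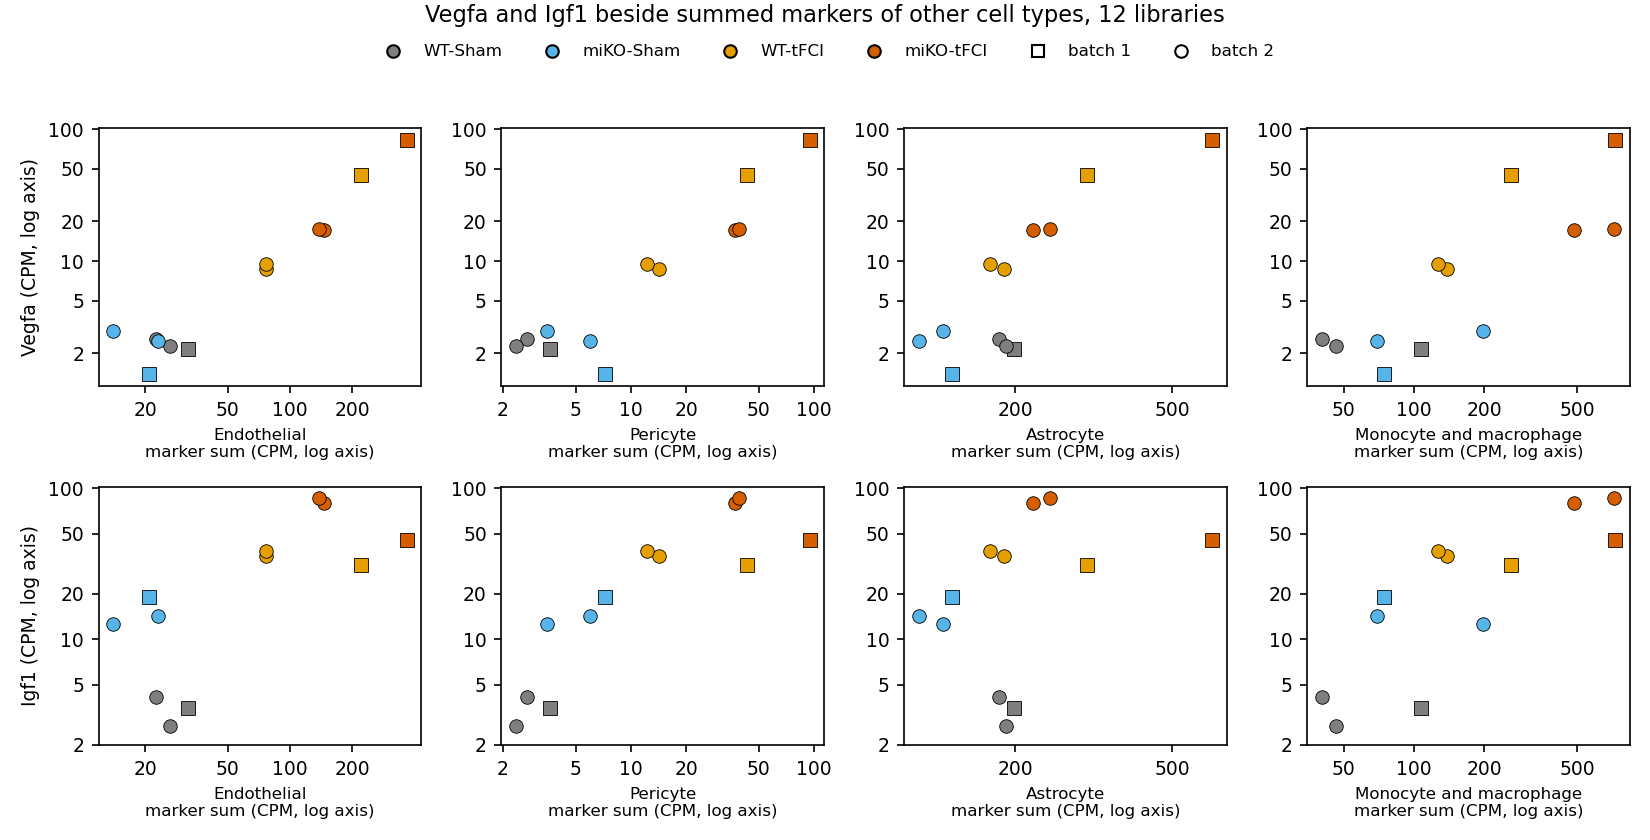
*Vegfa* (top) and *Igf1* (bottom) in CPM on a log y axis against the summed CPM of markers of another cell type on a log x axis, 1 point per library, coloured by group, with squares for batch 1. The batch 1 library of miKO-tFCI is highest in *Vegfa*, at 83.2 CPM, and in the endothelial sum, at 368 CPM, but its *Igf1*, at 45.7 CPM, is below both batch 2 libraries of its group.

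*Vegfb* encodes a VEGF ligand of VEGFR-1 linked to vessel survival (ENSMUSG00000024962.13, chr19:6982473-6987651, minus strand). Its level was 48.9, 33.1 and 29.3 CPM in WT-Sham and 35.1, 35.5 and 26.4 CPM in miKO-Sham. After tFCI it was 56.5, 38.8 and 43.9 CPM in WT and 39.2, 27.4 and 25.6 CPM in miKO. The groups overlapped in each of the 4 comparisons, and within batch 1 and batch 2 the miKO-tFCI libraries lay below those of WT-tFCI. *Vegfb* was 1.52-fold lower in miKO-tFCI than in WT-tFCI (-0.60, SE 0.15, edgeR adjusted p = 0.0221). The size is at the fold threshold, and it did not pass in DESeq2 (-0.58, DESeq2 adjusted p = 0.0134) or edgeR with DESeq2 size factors (-0.58, adjusted p = 0.0270). With no batch term it was -0.59 (edgeR adjusted p = 0.187), and without any one of WT-tFCI replicates 2 and 3 and miKO-tFCI replicates 2 and 3 it was -0.64 to -0.55 (edgeR adjusted p = 0.0508 to 0.112), all not called. Differences with tFCI in WT (0.34, 95% interval 0.01 to 0.66), with tFCI in miKO (-0.10, 95% interval -0.43 to 0.23) and between sham groups (-0.17, 95% interval -0.49 to 0.16) were not called.

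*Hbegf* encodes heparin-binding EGF-like growth factor, which is shed from the membrane to act on EGF receptors (ENSMUSG00000024486.6, chr18:36504927-36515805, minus strand). It was at 12.5, 12.7 and 13.9 CPM in WT-Sham and 9.02, 9.71 and 11.3 CPM in miKO-Sham. Stroke libraries of WT held 12.7, 6.93 and 7.19 CPM, and stroke libraries of miKO 21.7, 12.9 and 13.8 CPM. Both tFCI groups were separate, with every miKO library above every WT library. *Hbegf* was 1.82-fold higher in miKO-tFCI than in WT-tFCI (0.86, SE 0.24, edgeR adjusted p = 0.0373). This call was lost without any one of WT-tFCI replicates 2 and 3 and miKO-tFCI replicates 1 and 3 (0.65 to 0.91, edgeR adjusted p = 0.0644 to 0.170) and with no batch term (0.86, edgeR adjusted p = 0.102). In miKO it rose 1.57-fold with tFCI (0.65, SE 0.24, edgeR adjusted p = 0.0436), which was not called in batch 2 alone (0.32, edgeR adjusted p = 0.320). That rise was also not called without miKO-Sham replicate 1 (0.42, edgeR adjusted p = 0.239), without miKO-Sham replicate 2 (0.68, edgeR adjusted p = 0.0673), or without replicate 2 or 3 of WT-Sham or WT-tFCI or replicate 1 or 3 of miKO-tFCI (0.43 to 0.68, edgeR adjusted p = 0.0576 to 0.225). In WT the difference with tFCI was -0.58 (95% interval -1.11 to -0.06, edgeR adjusted p = 0.0734), not called over all 12 libraries but called in batch 2 alone (-0.90, edgeR adjusted p = 0.0117). It was also called without replicate 1 of any one group (-0.83 to -0.60, edgeR adjusted p = 0.0338 to 0.0496). The sham groups differed by -0.37 (95% interval -0.90 to 0.15, edgeR adjusted p = 0.329). The interaction was 1.24 (SE 0.35, 95% interval 0.50 to 1.97) and missed the threshold (edgeR adjusted p = 0.0640), while it passed in DESeq2 (1.27, DESeq2 adjusted p = 0.0284) and without the filter on low counts (1.23, edgeR adjusted p = 0.0320). It also passed without WT-Sham replicate 1, WT-tFCI replicate 1 or miKO-Sham replicate 3 (1.39 to 1.47, edgeR adjusted p = 0.0330 to 0.0472). Without miKO-Sham replicate 1 or 2 it was 1.02 or 1.26 and not called. Summed monocyte and macrophage, border-associated macrophage and neutrophil markers were also higher in every miKO-tFCI library than in any WT-tFCI library. Of the single markers tested, 4 of 9, 3 of 8 and 6 of 8 were called higher and 0 lower. *Mrc1*, a border-associated macrophage marker, was at 17.4 CPM in miKO-tFCI replicate 1, below every WT-tFCI library (18.3 to 65.1 CPM). The part of these cells in the *Hbegf* difference was not tested.

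*Gdf15* encodes growth differentiation factor 15, a distant TGF-beta family cytokine made under mitochondrial and integrated stress (ENSMUSG00000038508.7, chr8:70629393-70632456, minus strand). It was the 1 member whose response to tFCI was called different between genotypes.

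*Gdf15* was at 8.17, 5.15 and 8.72 CPM in WT-Sham and 33.7, 41.1 and 23.8 CPM in miKO-Sham. After tFCI it was at 29.7, 39.5 and 42.3 CPM in WT and at 38.8, 78.7 and 65.7 CPM in miKO. WT-Sham stood alone below the other groups, and miKO-Sham already overlapped WT-tFCI. Loss of *Hdac3* went with a 4.46-fold higher level in the sham brain (2.16, SE 0.27, edgeR adjusted p = 5.46e-05), with 2.01 within batch 1 and 2.18 within batch 2. Without miKO-Sham replicate 1 it was 1.98 and without replicate 2 it was 2.03, both called. tFCI raised *Gdf15* 4.98-fold in WT (2.32, SE 0.27, edgeR adjusted p = 1.38e-05) and 1.81-fold in miKO (0.86, SE 0.25, edgeR adjusted p = 0.0115). Without miKO-Sham replicate 1 or 2 the rise in miKO was 1.02 or 1.00, both called. It was not called without miKO-Sham replicate 3 (0.60, edgeR adjusted p = 0.0602) or miKO-tFCI replicate 2 (0.68, edgeR adjusted p = 0.0553), and it was 0.20 within batch 1 and 1.19 within batch 2. After tFCI the genotypes differed by 0.70 (95% interval 0.18 to 1.22), which was not called (edgeR adjusted p = 0.0827). It was called without miKO-Sham replicate 3 (0.70, edgeR adjusted p = 0.0465) and without miKO-tFCI replicate 1 (0.91, edgeR adjusted p = 0.0342), and also in DESeq2 (0.71, DESeq2 adjusted p = 0.0498), without the filter (0.67, edgeR adjusted p = 0.00472) and with the tFCI groups fitted alone (0.68, edgeR adjusted p = 0.00485). The interaction was -1.46 (SE 0.36, 95% interval -2.23 to -0.68, edgeR adjusted p = 0.0368), a smaller response in miKO than in WT on the log2 scale. It was -1.63 within batch 1 and -1.37 within batch 2. Its call was lost without miKO-Sham replicate 1 (-1.29, edgeR adjusted p = 0.101), without replicate 2 (-1.32, edgeR adjusted p = 0.0804) and in batch 2 alone (-1.42, edgeR adjusted p = 0.0605). It was likewise lost without WT-Sham replicate 2 or 3, WT-tFCI replicate 2 or 3 or miKO-tFCI replicate 1 or 3 (-1.54 to -1.21, edgeR adjusted p = 0.0660 to 0.107) and with no batch term (-1.44, edgeR adjusted p = 0.101).

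Per kilobase of exon, the order of the members changed with surgery and genotype. On this scale, CPM per kb, *Pdgfb* led in WT-Sham at a mean of 33.9, followed by *Vegfb* at 23.1, *Pdgfa* at 7.37, *Gdf15* at 3.97 and *Hbegf* at 2.69. *Vegfa* at 0.544 and *Igf1* at 0.347 were last among the tested members. In miKO-tFCI *Gdf15* at 33.0 was level with *Pdgfb* at 32.5, ahead of *Vegfb* at 19.2, *Vegfa* at 9.16, *Pdgfa* at 8.43, *Igf1* at 7.15 and *Hbegf* at 3.34. The place of *Vegfa* rests on replicate 1. Its level per kb was 19.4, 3.99 and 4.07 in replicates 1 to 3, so that in replicates 2 and 3 it lay below *Igf1* (8.12 and 8.70) and *Pdgfa* (7.01 and 4.99). *Bdnf* was at 0.0842 CPM per kb in that group. SMART-Seq counts and a union of exons make these levels approximate.

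Over the 12 libraries, log2 CPM adjusted for batch described which members moved together. The values share the 4 groups and the scaling, so they are given with no test. *Igf1* and *Gdf15* were the closest pair (Pearson r 0.94), followed by *Igf1* and *Vegfa* (0.75) and *Pdgfa* and *Vegfb* (0.72), whereas *Pdgfa* and *Pdgfb* ran opposite (-0.81). Among all genes tested, *Adam8*, a metalloproteinase, and *Ctsl*, a lysosomal protease, were most like *Igf1* (0.992 and 0.986). *Plin2*, a lipid droplet protein, was among the 2 genes most like *Gdf15* (0.984), after the antisense gene *Gm21691* (0.985). For *Vegfa* they were *Palmd* (0.989) and *Twist1* (0.985), for *Pdgfa* the pseudogene *Gm9800* (0.967) and *Epsti1* (0.962), and for *Pdgfb* the lincRNA *Gm20045* (0.970) and *Fyb* (0.966). *Vegfb* was most like *Srpk2* (0.958) and *Ptms* (0.950), and *Hbegf* most like *Gorasp2* and *Zfp334* (0.923 each).

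Related genes were counted from fixed lists by the same rule. The shares of all genes called in each comparison, given again here, are the background for each of these counts. With tFCI 20.9% rose and 11.7% fell in WT, and 21.9% rose and 13.9% fell in miKO. Between genotypes 8.58% rose and 6.80% fell in the sham brain, and 4.08% rose and 4.71% fell after tFCI. Of 15 tested receptors and co-receptors, 9 rose and 1 fell with tFCI in WT (median log2 fold change 2.14), and 13 rose and 1 fell in miKO (3.05), where the median of all genes was 0.02 and 0.03. Of the 21 listed receptors, 4 (*Pdgfra*, *Pdgfrb*, *Flt1* and *Kdr*) are also markers of endothelium, pericytes or oligodendrocyte progenitors used above. The gene that fell in both was *Insr*, the insulin receptor. In miKO-Sham vs. WT-Sham, *Pdgfrb* rose and *Igf1r*, *Nrp1*, *Nrp2* and *Sort1* fell. *Igf1r*, the receptor of IGF-1, was at 35.8, 25.5 and 29.5 CPM in WT-Sham and 14.0, 9.02 and 8.97 CPM in miKO-Sham, groups that did not overlap (-1.52, SE 0.22, edgeR adjusted p = 1.72e-04). *Nrp1*, a co-receptor for VEGF and semaphorins, was at 117, 127 and 133 CPM against 29.3, 29.3 and 44.1 CPM, also without overlap (-1.88, SE 0.16, edgeR adjusted p = 1.44e-06). Both were also called in the interaction, at 1.47 (edgeR adjusted p = 0.0132) and 1.36 (edgeR adjusted p = 0.00266), so that the difference with tFCI was more positive in miKO than in WT. The sham differences of both genes were called under every alternative run, at -1.62 and -1.47 for *Igf1r* and -1.85 and -1.73 for *Nrp1* without miKO-Sham replicates 1 and 2. The interaction of *Nrp1* was also called under every alternative run, whereas that of *Igf1r* was lost without WT-Sham replicate 3 (1.41, edgeR adjusted p = 0.0520), without WT-tFCI replicate 2 (1.37, edgeR adjusted p = 0.0600), with no batch term (1.48, edgeR adjusted p = 0.0680) and in batch 2 alone (1.40, edgeR adjusted p = 0.0696). *Pdgfrb* in the sham comparison was lost without any one of WT-Sham replicates 1 and 3, miKO-Sham replicates 2 and 3 and miKO-tFCI replicate 2 (1.21 to 2.28, edgeR adjusted p = 0.0542 to 0.144), and *Nrp2* without WT-Sham replicate 1 or miKO-Sham replicate 2. In miKO-tFCI vs. WT-tFCI, 3 receptors were called higher, *Pdgfra* (1.56), *Pdgfrb* (1.53) and *Ntrk2* (1.36), and 2 fell, *Nrp2* and *Sort1*. None of the 3 higher calls held without WT-tFCI replicate 2 (edgeR adjusted p = 0.129 to 0.171), WT-tFCI replicate 3 (edgeR adjusted p = 0.112 to 0.184) or miKO-tFCI replicate 1 (edgeR adjusted p = 0.0952 to 0.306), or with no batch term (edgeR adjusted p = 0.178 to 0.323). *Ntrk2* was at 123, 16.7 and 21.1 CPM in miKO-tFCI and at 44.3, 6.93 and 8.53 CPM in WT-tFCI, highest in the replicate 1 libraries that carried the most endothelial, pericyte and astrocyte markers, and the part of those cells was not tested. The VEGF receptor *Flt4* was called higher with tFCI in both genotypes from 0 counts in every WT-Sham library. GFRAL, the receptor of GDF15, had at most 0.251 CPM in any library and was not tested.

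Of 6 tested IGF-binding proteins, which hold IGF-1 in extracellular fluid, 4 rose and 0 fell with tFCI in WT (median 4.41) and 5 rose and 0 fell in miKO (median 4.19). *Igfbp3* was at 0.115 ± 0.112 CPM in WT-Sham (SD, n = 3) and at 13.2 ± 4.61 CPM in WT-tFCI, and after tFCI was 2.65-fold higher in miKO (1.41, SE 0.28, edgeR adjusted p = 0.00575). In miKO-tFCI vs. WT-tFCI, *Igfbp3*, *Igfbp5*, *Igfbp6* and *Igfbp7* were called higher and none lower. *Igfbp5* and *Igfbp7* lost that call in DESeq2 (DESeq2 adjusted p = 0.0900 and 0.0896) and without WT-tFCI replicate 2, WT-tFCI replicate 3 or miKO-tFCI replicate 1 (0.84 to 1.26, edgeR adjusted p = 0.0813 to 0.158). *Igfbp7* also lost it without miKO-tFCI replicate 2 (1.17, edgeR adjusted p = 0.0561). With no batch term *Igfbp3* alone was called. In miKO-Sham vs. WT-Sham, *Igfbp6* rose (2.13, edgeR adjusted p = 1.36e-04) and *Igfbp4* fell (-1.84, edgeR adjusted p = 0.00254). *Igfbp6* was low, at 1.68, 0.784 and 0.616 CPM in WT-Sham and 8.19, 3.88 and 1.79 CPM in miKO-Sham. With no batch term its sham call was lost (2.17, edgeR adjusted p = 0.114). *Igfbp4* was also called in the interaction (2.23, edgeR adjusted p = 0.0214). The sham difference of *Igfbp4* was -1.36 and -1.67 without miKO-Sham replicates 1 and 2, both called. Its interaction was lost without WT-tFCI replicate 2 (2.18, edgeR adjusted p = 0.0645), without WT-tFCI replicate 3 (2.15, edgeR adjusted p = 0.0625) and with no batch term (2.29, edgeR adjusted p = 0.0649). *Igfbp5*, *Igfbp6* and *Igfbp7* were highest in the batch 1 libraries of both tFCI groups, as *Vegfa* was. These libraries held 122 and 290 CPM of *Igfbp5*, 62.7 and 146 CPM of *Igfbp6* and 129 and 301 CPM of *Igfbp7*. The same libraries carried the most endothelial and pericyte markers, and their part was not tested.

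Of 12 tested convertases and sheddases, enzymes that cut growth factors or matrix to release or activate them, 7 rose and 0 fell with tFCI in WT, and 7 rose and 0 fell in miKO. *Adam8* was the gene most like *Igf1* and was 18.0-fold higher in miKO-Sham than in WT-Sham (4.17, SE 0.42, edgeR adjusted p = 7.32e-06), with 3.74 and 4.12 without miKO-Sham replicates 1 and 2, both called. It was also 3.22-fold higher in miKO-tFCI than in WT-tFCI (1.69, SE 0.31, edgeR adjusted p = 0.00391), where *Plat*, tissue plasminogen activator, was the other gene that rose. *Plat* was at 134, 45.2 and 75.0 CPM in miKO-tFCI and 60.8, 20.2 and 18.5 CPM in WT-tFCI. It was not called with no batch term (1.35, edgeR adjusted p = 0.124). Its highest libraries, replicate 1 of both groups, carried the most endothelial markers, and the part of those cells was not tested. In the sham comparison *Adam8*, *Plat* and *Mmp9* rose and *Mmp14* and *Adam10* fell. *Plat* rose there from 0, 0 and 0.103 CPM in WT-Sham, and with only the sham groups it did not pass the filter. *Mmp9* rested there on miKO-Sham replicate 3, at 31.4 CPM against 3.19 and 1.80 CPM in replicates 1 and 2, and was not called without it (0.56, edgeR adjusted p = 0.574). *Adam10* was not called without any one of the sham libraries other than WT-Sham replicate 2 (-0.84 to -0.67, edgeR adjusted p = 0.0504 to 0.121). *Adam12* was at 0 in all 6 sham libraries and at 2.31 CPM or more in every tFCI library, so no fold is given. *Adam17*, the main sheddase of HB-EGF, was not called in any comparison of the 4 groups.

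**Figure D4:**
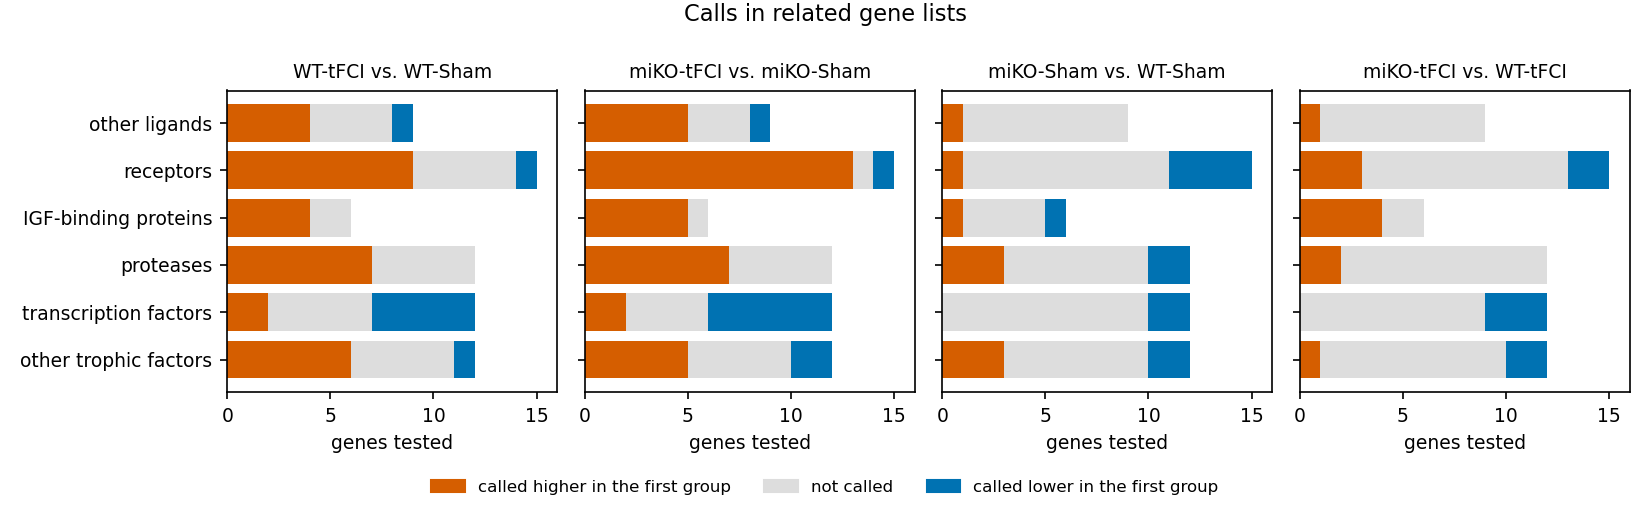
Number of tested genes of each list (bars, x axis) called higher (orange), called lower (blue) or not called (grey), 1 panel per comparison and 1 bar per list (y axis). Among the 15 receptors tested, 9 are called higher after tFCI in WT and 13 in miKO microglia.

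Of 9 tested ligands of the same families, 4 rose and 1 fell with tFCI in WT, and 5 rose and 1 fell in miKO. Both genotypes had *Pgf*, *Areg* and *Pdgfd* among the genes that rose. *Pgf*, placental growth factor, was the 1 ligand called higher in miKO-Sham vs. WT-Sham, and *Pdgfd* was the 1 called higher in miKO-tFCI vs. WT-tFCI. The *Pgf* call was lost without WT-Sham replicate 1 (3.46, edgeR adjusted p = 0.0725) or 2 (3.79, edgeR adjusted p = 0.0559), and with only the sham groups the gene did not pass the filter. The *Pdgfd* call was lost without any one of the 6 tFCI libraries (1.56 to 2.05, edgeR adjusted p = 0.0847 to 0.179) and with no batch term (1.77, edgeR adjusted p = 0.217). Low counts limit this list, and with *Pdgfd* at 0.183 ± 0.162 CPM in WT-Sham and 6.01 ± 3.83 CPM in miKO-tFCI it was not called after tFCI in batch 2 alone (1.77, edgeR adjusted p = 0.155).

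Of 12 transcription factors named for control of the members, 2 rose and 5 fell with tFCI in WT (median -0.52), and 2 rose and 6 fell in miKO (median -0.64). *Hif1a* and *Epas1*, which encode oxygen-regulated subunits of the hypoxia-inducible factors, were the genes that rose in both. *Hif1a* rose by 1.20 on the log2 scale in miKO (edgeR adjusted p = 2.17e-05), and *Epas1* lay at 0.337 ± 0.307 CPM in WT-Sham and 10.2 ± 10.0 CPM in WT-tFCI, with 21.8 CPM in batch 1 and 4.96 and 3.90 CPM in batch 2. In miKO-tFCI *Epas1* was at 29.8 CPM in batch 1 and 10.9 and 6.92 CPM in batch 2. The batch 1 libraries after tFCI carried the most endothelial markers, and the part of those cells was not tested. *Egr1*, an immediate early gene, fell between genotypes in the sham brain (-1.36, edgeR adjusted p = 5.51e-05) and after tFCI (-1.21, edgeR adjusted p = 5.17e-04). *Klf2* fell in both of these comparisons as well, and *Atf3* was called lower between the tFCI groups (-0.89, edgeR adjusted p = 0.00407).

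Of 12 tested other trophic factors, 6 rose and 1 fell with tFCI in WT, and 5 rose and 2 fell in miKO. *Mdk*, *Hgf*, *Ptn* and *Lif* rose in both. *Mdk*, *Ptn* and *Lif*, but not *Hgf*, were highest in replicate 1 of both tFCI groups. *Ptn* was at 33.9, 9.58 and 5.97 CPM in WT-tFCI and at 90.4, 12.8 and 26.0 CPM in miKO-tFCI. Those replicate 1 libraries carried the most endothelial, pericyte and astrocyte markers, and the part of those cells was not tested. In miKO-Sham vs. WT-Sham, *Mdk*, *Grn* and *Osm* rose, and *Fgf1* and *Clcf1* fell. *Mdk* was not called without WT-Sham replicate 1 (1.66, edgeR adjusted p = 0.0770) or miKO-Sham replicate 2 (1.62, edgeR adjusted p = 0.0528), and *Clcf1* not without miKO-Sham replicate 1 or 2 (-0.56 and -0.61, edgeR adjusted p = 0.0758 and 0.0565). *Osm*, which encodes oncostatin M, differed between genotypes in opposite directions before and after stroke. The sham groups were at 100 ± 4.47 CPM (WT) and 188 ± 19.6 CPM (miKO), and the stroke groups at 321 ± 66.6 CPM (WT) and 177 ± 20.6 CPM (miKO). Its genotype difference was 0.91 in the sham brain (edgeR adjusted p = 7.52e-04) and -0.85 after tFCI (edgeR adjusted p = 0.00317), and the interaction was called (-1.76, SE 0.22, edgeR adjusted p = 4.49e-04). All 3 were called under every alternative run, and without miKO-Sham replicates 1 and 2 the sham difference was 0.74 and 0.94 and the interaction -1.59 and -1.79. *Grn*, progranulin, was also called in the interaction (-0.92, SE 0.24, edgeR adjusted p = 0.0443). That call was lost without any one of 8 libraries, which were WT-Sham replicates 2 and 3, all WT-tFCI replicates, miKO-Sham replicates 1 and 2 and miKO-tFCI replicate 2 (edgeR adjusted p = 0.0548 to 0.139), with the replicate block (-0.92, edgeR adjusted p = 0.0578) and with no batch term (-0.89, edgeR adjusted p = 0.139).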

How the data were processed

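Counts per gene were deposited by the authors without normalization. The submitters' processing notes name FastQC 0.11.9, Trim Galore, HISAT2 2.2.1, SAMtools, HTSeq 1.99.2 and mm10/GRCm38.p6, and the library kit was SMART-Seq v4, which does not mark strand. Of all reads, 30.7% to 38.5% lay on genes and 45.3% to 52.5% on none, and lines that name no gene were left out. Symbols came from GENCODE M21, which matched 55141 of 55401 identifiers.

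The model was fitted with edgeR 4.0.16 in R 4.3.3 (filterByExpr, TMM, quasi-likelihood fit of group and batch over 12 libraries, 7 residual degrees of freedom, common biological coefficient of variation 0.199). Intervals are 95% intervals of single genes. DESeq2 1.42.0 was an alternative, and the steps were tested on simulated data. A floor of 3 counts covers counting error only. The members and lists were chosen with earlier results of these data known, and the lists were written from general knowledge. All 8 members were named, with *Hdac3*, per list the 3 called genes of largest change in each comparison among those with at least 10 counts in every library of a group, and for each tested member the 2 genes most like it. Some genes that this rule names are not reported here. Genes named beside small counts, and single library values of other list genes, were chosen after their values were seen. Same-numbered libraries deviated together between miKO-tFCI and WT-tFCI (r 0.67, 0.33 and 0.32) but not throughout in the other comparisons (r -0.06 to 0.24).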

Additional observations from a re-analysis of the deposited data

Results flagged for a closer look

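The response of *Gdf15* to tFCI was called different between genotypes on the log2 scale. Its level went from 7.35 ± 1.92 to 37.1 ± 6.61 CPM in WT (SD, n = 3) and from 32.9 ± 8.65 to 61.1 ± 20.3 CPM in miKO. The interaction of genotype and surgery was -1.46 on the log2 scale (edgeR adjusted p = 0.0368), with the same sign within both batches. It was not called in batch 2 alone (-1.42, edgeR adjusted p = 0.0605), and its adjusted p was above 0.05 when any one of 8 libraries was left out.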

How the results depend on the processing

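The fit with a replicate block in place of batch changed no call of a member, with 4 and 6 members called for tFCI in WT and in miKO, 4 for genotype in sham, 4 for genotype after tFCI and 1 for the interaction, the same counts as with batch. Counts in both stroke comparisons stayed within 1.5 times of these under every alternative run. In miKO-Sham vs. WT-Sham, leaving out 1 library gave 2 to 4 members called. In miKO-tFCI vs. WT-tFCI the count was 2 with DESeq2 size factors in edgeR, 1 with no batch term and 0 to 5 when 1 library was left out. For the interaction it was 3 in DESeq2, 3 without the filter on low counts, 0 with no batch term, 0 to 3 when 1 library was left out and 0 in batch 2 alone, which was added once the data had been seen. Signs turned only for members with no call. *Vegfb* in miKO-tFCI vs. miKO-Sham turned to 0.07 without miKO-Sham replicate 2 (-0.22 to 0.07 over the libraries left out). *Vegfa* in miKO-Sham vs. WT-Sham, at 0.00, was -0.01 without the filter, -0.03 with no batch term, -0.08 with only the sham groups, and -0.64 to 0.84 when 1 library was left out (-0.64, -0.54, -0.30 or -0.01 where the sign turned). *Pdgfa* in the interaction, at 0.13, turned to -0.11 without miKO-Sham replicate 1, to -0.21 without miKO-tFCI replicate 1 (-0.21 to 0.37 over the libraries left out) and to -0.28 in batch 2 alone. The cause was not tested. DESeq2 moved the median of all genes in miKO-tFCI vs. miKO-Sham from 0.03 to 0.14. Of 588 counts of the related lists under the alternatives, 520 were within 1.5 times. Called genes of these lists kept their call under every alternative run in 30 of 40 for tFCI in WT, 39 of 47 in miKO, 11 of 20 for genotype in sham, 8 of 18 after tFCI and 3 of 8 for the interaction, and with the replicate block *Grn* lost its interaction call (edgeR adjusted p = 0.0578) and *Pdgfc* its rise with tFCI in miKO (edgeR adjusted p = 0.0568). With 3 libraries per group, of which 1 is in another batch, differences under about the 95% intervals given could not be shown.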
